A study of Papio anubis with 18 samples.

Results

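In the olive baboon, Papio anubis, 5 genes had counts in embryonic stem cells (ESC) and almost none in induced pluripotent stem cells (iPSC). These were ENSPANG00000014666, ENSPANG00000006115, ENSPANG00000005169, ENSPANG00000036144 and ENSPANG00000035794, 5 of the 29475 Ensembl gene identifiers in the deposited count table. The 5 were chosen by their difference in counts between the ESC and iPSC libraries of this same table, so that difference is described here and not tested. The study profiled ESC lines B4 and B15 and iPSC lines iPSC_160-2 and iPSC_M14939#3 by RNA-seq, with 3 libraries per line and 12 in all. All 4 lines shared the same culture, a medium for human pluripotent cells on a layer of feeder cells, and no treatment or genetic change is given in the labels. The libraries also carry a number after the letter p, which the labels do not define: 21, 28 and 43 for replicates 1 to 3 of B15, 16, 18 and 25 for B4, 25, 65 and 84 for iPSC_160-2, and 16, 17 and 40 for iPSC_M14939#3. Each cell type is represented by 2 lines, so cell type and line cannot be told apart beyond those lines.

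ESC lines are derived from the early embryo, whereas iPSC lines come from somatic cells in which pluripotency was induced by reprogramming. Both kinds of cell are known for silencing lineage genes while keeping a shared network of pluripotency factors active. The 2 kinds are compared to find single genes that stay silent, or stay active, after reprogramming. The files give the 5 genes by identifier only. The RefSeq table of assembly Panubis1.0 lists 39274 genes with 0 baboon Ensembl identifiers. No gene of the count table could therefore be paired with a symbol there, and the 0 of 5 says nothing about these genes. What these genes encode, where they lie and their sequences are therefore not given, and the labelled cell types could not be checked against marker genes.

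The shallowest library (ESC B4 replicate 2) had 12049925 counts and the deepest (ESC B15 replicate 1) 62634176, so a single count corresponds to a different CPM (counts per 1000000 counts of the library) in each. Of the 12 libraries, 6 were run on 2 lanes, which were summed, and 6 on 1 lane. Replicate 2 of ESC B15 stood apart in scaling, with a TMM factor of 0.779, the lowest of the 12. Gene lengths were not used, so CPM is compared between libraries for each gene and never between genes. Counting intervals and limits for 0 counts cover counting error only, since reads amplified by PCR without molecular identifiers are not independent molecules.

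Of the 5, 2 genes, ENSPANG00000006115 and ENSPANG00000014666, were present in all 6 ESC libraries and lower in all 6 iPSC libraries. For ENSPANG00000006115 the B4 libraries had 23.8, 27.5 and 21.1 CPM (676, 331 and 721 counts) and the B15 libraries 5.51, 8.30 and 9.38 CPM (345, 171 and 226 counts). Its iPSC libraries had 0.0774, 0.0485 and 0.427 CPM in iPSC_160-2 and 0.348, 0.204 and 0.0882 CPM in iPSC_M14939#3, from 2 to 13 counts each. The lowest ESC library lay 12.9-fold above the highest iPSC library, and no library of a cell type came near the range of the other type. In these bulk libraries, fewer cells with a gene's RNA and less RNA per cell cannot be told apart.

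ENSPANG00000014666 was a gene of few counts. It had 0.399, 0.194 and 1.41 CPM in the B15 libraries (25, 4 and 34 counts) and 0.458, 0.249 and 1.38 CPM in the B4 libraries (13, 3 and 47 counts). In iPSC, 4 of the 6 libraries held 0 counts, and 1 library of each line held a single count, at 0.0329 and 0.0441 CPM. The lowest ESC library lay 4.40-fold above the highest iPSC library, but that ESC library rests on 4 counts, with a 95% counting interval that starts at 0.0529 CPM. A count of 0 allows up to 0.0774 CPM in iPSC_160-2 replicate 1, taken as 3 counts of its total, and up to 0.130 CPM in iPSC_M14939#3 replicate 1. The separation of the cell types in single libraries is thus less firm for ENSPANG00000014666 than for ENSPANG00000006115.

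**Figure D1:**
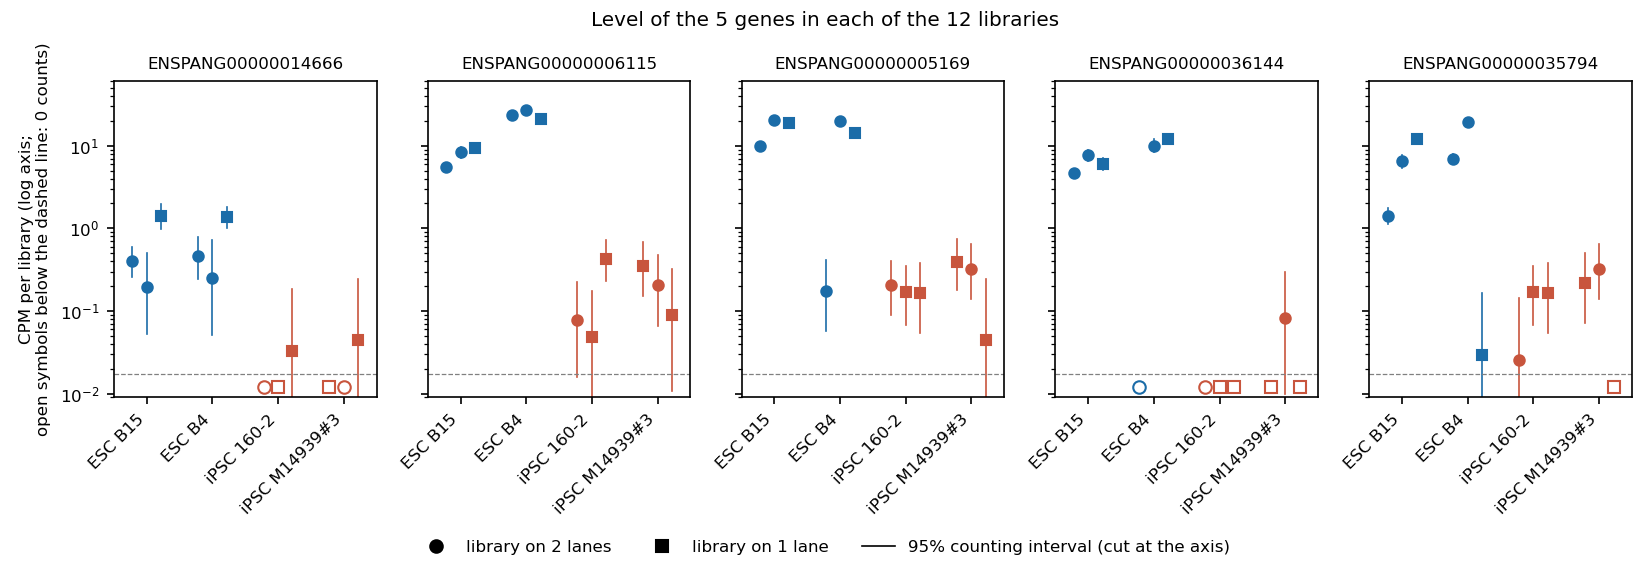
Level of each gene in each library, in CPM on a log axis, by line (ESC blue, iPSC red). Circles are libraries run on 2 lanes and squares libraries run on 1 lane, from replicate 1 to 3 left to right, with 95% counting intervals, and open symbols under the dashed line are libraries with 0 counts. ENSPANG00000005169 and ENSPANG00000036144 drop in ESC B4 replicate 1 (0.176 CPM and 0 counts), and ENSPANG00000035794 drops in ESC B4 replicate 3 (0.0293 CPM).

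The other 3 genes were present in 5 ESC libraries and near-absent from 1 library of line B4. ENSPANG00000005169 had 10.03, 20.4 and 19.04 CPM in the B15 libraries (628, 421 and 459 counts) and 19.8 and 14.1 CPM in replicates 2 and 3 of B4 (239 and 482 counts). Replicate 1 of B4 had 5 counts, or 0.176 CPM, inside the iPSC range of 0.0441 to 0.391 CPM. At the lowest level of the other ESC libraries its depth would have given 285 counts, so depth did not limit this value. The ratio of that lowest level, in B15 replicate 1, to B4 replicate 1 was 56.9 (95% counting interval 24.3 to 176).

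ENSPANG00000036144 was near-absent from the same library. It had 4.65, 7.66 and 6.06 CPM in the B15 libraries (291, 158 and 146 counts), 10.04 and 11.99 CPM in replicates 2 and 3 of B4 (121 and 409 counts), and 0 counts in replicate 1 of B4. Measured against a limit of 3 counts in that library, its level was at least 44.0-fold lower there than in the lowest of the other 5 ESC libraries, where 132 counts would have been found at equal level. The counts of the 2 genes kept a loose proportion in the other ESC libraries: ENSPANG00000036144 had from 31.8% (B15 replicate 3) to 84.9% (B4 replicate 3) of the counts of ENSPANG00000005169.

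ENSPANG00000035794 had another pattern. It had 1.42, 6.45 and 12.1 CPM in the B15 libraries (89, 133 and 291 counts) and 6.90 and 19.2 CPM in replicates 1 and 2 of B4 (196 and 231 counts), but 1 count, 0.0293 CPM, in replicate 3 of B4. Depth again did not set this value, since 48.5 counts would have been found at the level of B15 replicate 1, the lowest of the others. That ratio was 48.5, with a wide 95% counting interval of 8.48 to 1937 because it rests on 1 count. Replicate 1 of B4, which nearly lacked the 2 genes above, held ENSPANG00000035794 at a middle ESC level. Replicate 3 of B4, which nearly lacked ENSPANG00000035794, had the highest ESC level of ENSPANG00000036144. The 2 absences thus fell in different libraries. In order of the number, the B4 libraries at p 16, 18 and 25 had ENSPANG00000005169 and ENSPANG00000036144 low at 16 and present at 18 and 25, and ENSPANG00000035794 present at 16 and 18 and low at 25.

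Few genes behaved this way in any ESC library. A gene was counted as near-absent from 1 ESC library when its CPM there was under 1/10 of the lowest CPM of the other 5, and that lowest was at least 1 CPM. In B4 replicate 1 this held for 4 of 11468 genes with such a level (0.0349%), 2 of them being ENSPANG00000005169 and ENSPANG00000036144. In B4 replicate 3 it held for 3 of 11583 genes (0.0259%), 1 of them being ENSPANG00000035794. The share was 0.00872% for B15 replicate 1 (1 gene), 0.0342% for B15 replicate 2 (4 genes), 0.0174% for B15 replicate 3 (2 genes) and 0% for B4 replicate 2, out of 11469 to 11696 genes. The near-absence therefore did not extend to a large number of genes in either B4 library. The 3 genes were chosen with these values known, so the shares describe how common the pattern was and test nothing.

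**Figure D2:**
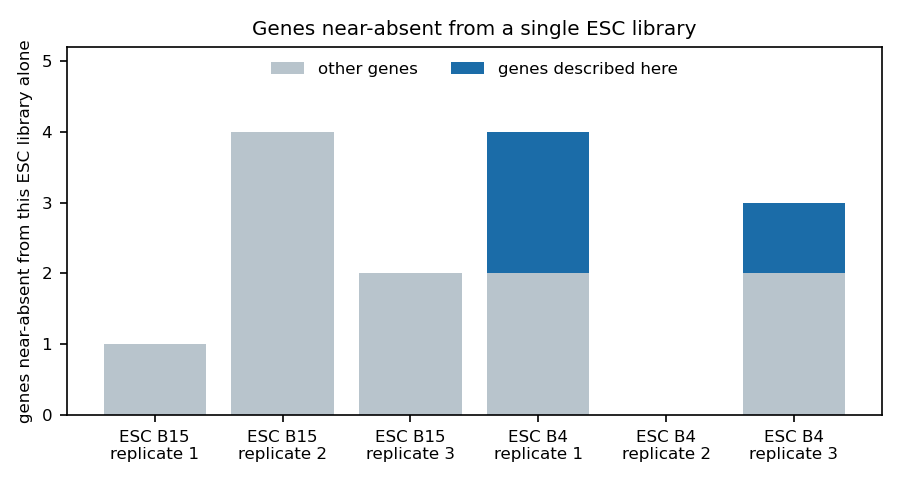
Number of genes near-absent from each ESC library alone (vertical axis), with the 5 genes described here in blue and all others in grey. Of the 4 genes in B4 replicate 1, 2 are described here, as is 1 of the 3 genes in B4 replicate 3.

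Beside the pair, the genes near-absent from B4 replicate 1 were ENSPANG00000029976 and ENSPANG00000035240. ENSPANG00000035240 followed the pair in the iPSC libraries as well: it had 1.23 to 3.31 CPM in the other 5 ESC libraries, 2 counts (0.0704 CPM) in B4 replicate 1, and 0 to 0.326 CPM in the iPSC libraries. ENSPANG00000029976 did not follow the cell types. It had 15.8 to 47.5 CPM in the other ESC libraries and 0.387 CPM in B4 replicate 1, but 34.2 and 21.3 CPM in the 2 iPSC libraries run on 2 lanes and 0.263 to 0.617 CPM in the 4 iPSC libraries run on 1 lane. In B4 replicate 3 the others were ENSPANG00000032562 and ENSPANG00000023385, both with iPSC libraries up to 19.3 and 4.96 CPM, so neither was silent in iPSC.

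Lanes of the same library were compared gene by gene. Near-absence held on both lanes of B4 replicate 1: ENSPANG00000005169 had 2 and 3 counts, and ENSPANG00000036144 had 0 and 0. Presence held on both lanes as well, for example 121 and 118 counts of ENSPANG00000005169 in B4 replicate 2 and 94 and 102 counts of ENSPANG00000035794 in B4 replicate 1. The exception among ESC libraries was ENSPANG00000014666 in B4 replicate 2, with 3 counts on lane 7 and 0 on lane 8, so its presence there rests on 1 lane. Its exact p = 0.121 is the lowest that 3 counts could give. Lanes 7 and 8 held close to equal shares of each library, the first from 49.2% to 49.9%. For the 6 libraries on 2 lanes, 26 combinations of gene and library held counts and 4 held none. The 26 were tested by a two-sided exact binomial test against the lanes' shares of the library total. None passed at an adjusted p under 0.05 (exact test; lowest adjusted p = 0.163), and 2 had an unadjusted p under 0.05. These were ENSPANG00000036144 in B4 replicate 2, with 75 and 46 counts (exact p = 0.00628), and ENSPANG00000035794 in iPSC_M14939#3 replicate 2, with 7 counts and 1 count (exact p = 0.0376). Combinations of only a few counts could not pass after adjustment, whatever their split, so for them the test is no check. Over the 16 combinations with at least 10 counts, the ratio of CPM on the first lane to that on the second ranged from 0.819 to 1.66. Replicate 3 of B4 was run on a single lane, so the 1 count of ENSPANG00000035794 has no such check.

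**Figure D3:**
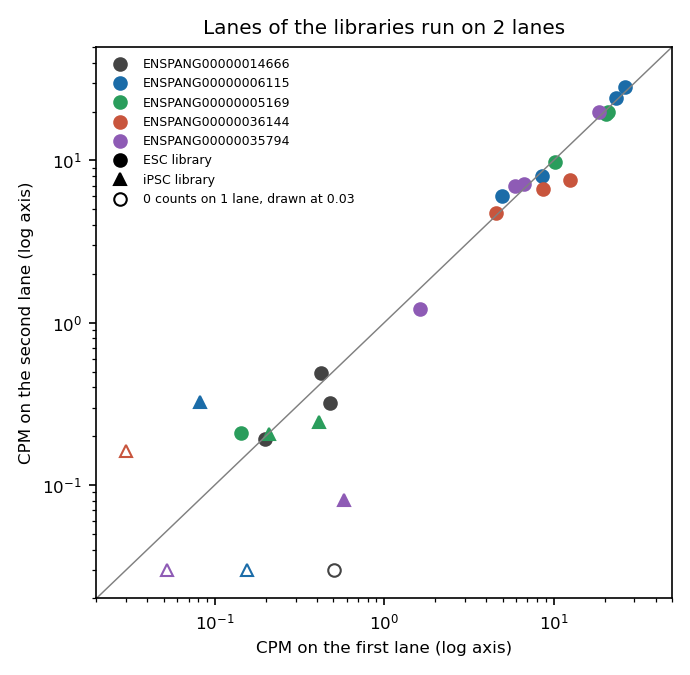
CPM of each gene on the second lane against the first lane, on log axes, for the 6 libraries run on 2 lanes (ESC circles, iPSC triangles, colours for genes; the grey line marks equal values, and open symbols have 0 counts on 1 lane). Combinations with at least 10 counts lie along the line, with ratios from 0.819 to 1.66.

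The counts left in iPSC differed from gene to gene. ENSPANG00000005169 and ENSPANG00000006115 had at least 1 count in each of the 6 iPSC libraries, 38 and 33 counts in sum, and ENSPANG00000035794 had 26 counts in 5 of the 6. ENSPANG00000036144 had 2 counts, both in iPSC_M14939#3 replicate 2 and on the same lane, and 0 in the other 5 iPSC libraries. ENSPANG00000014666 had 2 counts, 1 in each line.

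Over summed counts scaled by TMM totals, the ESC to iPSC ratio was 76.2 for ENSPANG00000006115 (95% counting interval 54.1 to 111) and 59.8 for ENSPANG00000005169 (43.4 to 84.8). It was 36.8 for ENSPANG00000035794 (24.98 to 56.7), 64.1 for ENSPANG00000014666 (17.4 to 535) and 572 for ENSPANG00000036144 (158 to 4732), the last 2 resting on 2 iPSC counts each. Without the B4 library in which each was near-absent, the ratios were 71.4 for ENSPANG00000005169, 685 for ENSPANG00000036144 and 45.3 for ENSPANG00000035794. These values chose the genes and are a description. The background of the choice is that every ESC library lay above every iPSC library for 48 of 17106 tested genes (0.281%), ENSPANG00000006115 and ENSPANG00000014666 among them, and the reverse held for 85. Leaving out 1 library raised the 48 by over 1.5 times in 4 cases: there were 94 such genes if B4 replicate 3 was left out, 86 if iPSC_160-2 replicate 1 was, 78 if iPSC_M14939#3 replicate 2 was and 74 if B15 replicate 1 was. A rise is built in, apart from changes in which genes are tested, because fewer libraries have to be separated.

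B15 was tested against B4 within the ESC lines. For ENSPANG00000005169, ENSPANG00000036144 and ENSPANG00000035794 the low B4 libraries were known when the genes were chosen, so their values in this comparison are a description. ENSPANG00000006115 was the gene of the 5 with separate ranges: all 3 B4 libraries, at 24.1 ± 3.2 CPM (SD, n = 3), lay above all 3 B15 libraries, at 7.73 ± 2.00 CPM (SD, n = 3). How many of all tested genes had separate ranges between the ESC lines was not counted, so this separation is a description only. The difference of ENSPANG00000006115, B15 minus B4, was -1.55 on the log2 scale (SE 0.45, 95% interval -2.51 to -0.60). It did not pass edgeR's quasi-likelihood test over all genes (adjusted p = 0.234, unadjusted p = 0.00352). The difference was -1.74 within the libraries run on 2 lanes and -1.22 within those run on 1 lane, which hold only replicate 3 of each ESC line. With separate ranges the direction had to be the same in both, so this is no further check. DESeq2 called it (adjusted p = 0.0253), as did edgeR without a filter on low counts (adjusted p = 0.0013), and the adjusted p ranged from 0.0013 to 0.9995 over all 19 alternatives. In the edgeR fit of all 12 libraries with the filter, 0.368% of the tested genes were called between the ESC lines, and 0 of the 5.

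Intervals for the other genes were wide. ENSPANG00000014666 had the same sum of 63 counts in each ESC line, and its log2 difference of -0.09 had a 95% interval from -1.35 to 1.18. The 95% intervals were -1.75 to 3.04 for ENSPANG00000005169, -3.39 to 3.25 for ENSPANG00000036144 and -3.84 to 3.67 for ENSPANG00000035794, each including more than a 2-fold difference in both directions. With 1 library left out, the log2 difference of ENSPANG00000005169, 0.65 over all libraries, ranged from 0.03 (without B4 replicate 1) to 2.03 (without B4 replicate 2). That of ENSPANG00000036144, -0.07 over all libraries, ranged from -0.82 to 1.51 without the same 2 libraries in turn. For ENSPANG00000035794, at -0.08 over all libraries, the range was -1.32 (without B4 replicate 3) to 1.26 (without B4 replicate 2), with 1.07 without B15 replicate 1. These 3 values thus depended on which library was left out, 2 of them for their direction, and a lack of difference between the ESC lines is not shown. Over the 5 genes the median log2 difference between ESC lines was -0.08, and over all tested genes it was 0.05.

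Between the iPSC lines, iPSC_M14939#3 against iPSC_160-2, 8.84% of the tested genes were called by edgeR, and 0 of the 5. That 0 is not a result about the 5 genes, since none had more than 13 counts in any iPSC library. The sums were 18 and 20 counts for ENSPANG00000005169, 15 and 18 for ENSPANG00000006115, and 13 and 13 for ENSPANG00000035794, in iPSC_M14939#3 and iPSC_160-2 in that order. Differences between the iPSC lines were not detectable for ENSPANG00000014666 and ENSPANG00000036144, with 2 counts each over both lines.

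The libraries run on 1 lane were also tested against those run on 2 lanes within lines. ENSPANG00000014666 was higher in the libraries run on 1 lane by 2.00 on the log2 scale (SE 0.57, edgeR adjusted p = 0.0427), and 6.51% of tested genes were called in this comparison. With the replicate block, the term for lane set rested on the iPSC libraries, since 1 lane and replicate 3 coincide in both ESC lines. The gene had 2 counts in iPSC, so the resulting -0.92 (SE 22.4, edgeR adjusted p = 0.830) gives no direction. The difference could thus not be separated from the replicate number. Both ESC libraries run on 1 lane, replicate 3 of B15 and of B4 at 1.41 and 1.38 CPM, lay above the 4 run on 2 lanes, at 0.194 to 0.458 CPM. In the ESC lines these 2 libraries also carry the highest number after p, 43 and 25, so the lane set, the replicate number and that number cannot be told apart there. Leaving out 1 library at a time ended the call in 11 of 12 cases, with edgeR adjusted p from 0.0514 without iPSC_160-2 replicate 2 to 0.266 without B15 replicate 3. It was kept without iPSC_M14939#3 replicate 1 (edgeR adjusted p = 0.0438). With all 12 libraries, DESeq2 also kept it (adjusted p = 0.0479). So did edgeR with DESeq2's size factors (adjusted p = 0.0435) and edgeR without a filter on low counts (adjusted p = 0.0322). None of the other 4 genes was called between the lane sets (edgeR adjusted p from 0.854 to 0.976). The median log2 difference was 0.18 over the 5 genes and 0.01 over all tested genes.

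To place the 5 among genes of the same kind, all tested genes whose ESC mean CPM was at least 20 times the iPSC mean were listed, a threshold set after the values were seen. There were 10, against 11 in the other direction. By this ratio of mean CPM, the 5 genes described here came first, but they were chosen by such a difference. The lowest of the 5, ENSPANG00000035794 at 51.0, was close to the next gene, ENSPANG00000031250 at 50.5 (53 ESC counts and 1 iPSC count). The order is thus no sign of a set apart, and another measure of the ratio could change it. In 2 of the 10, ENSPANG00000006115 and ENSPANG00000014666, every ESC library lay above every iPSC library. The rest were each at the iPSC level in at least 1 ESC library. ENSPANG00000032323 was a gene of line B4, with 60.8 to 86.02 CPM there, 1.02 to 1.41 CPM in B15 and 1.22 to 2.24 CPM in iPSC. ENSPANG00000031250 had the same arrangement at a low level, with 0.634 to 0.830 CPM in B4 and 2 counts in B15. ENSPANG00000005116 reached 11.4 CPM in B4 replicate 3 and at most 0.634 CPM in the other ESC libraries, so 1 library made its ESC mean. ENSPANG00000003847 had 0.249 to 2.32 CPM in 5 ESC libraries and 0 counts in B15 replicate 2, which allows up to 0.146 CPM. The last of the 10 was ENSPANG00000035240, described above.

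**Figure D4:**
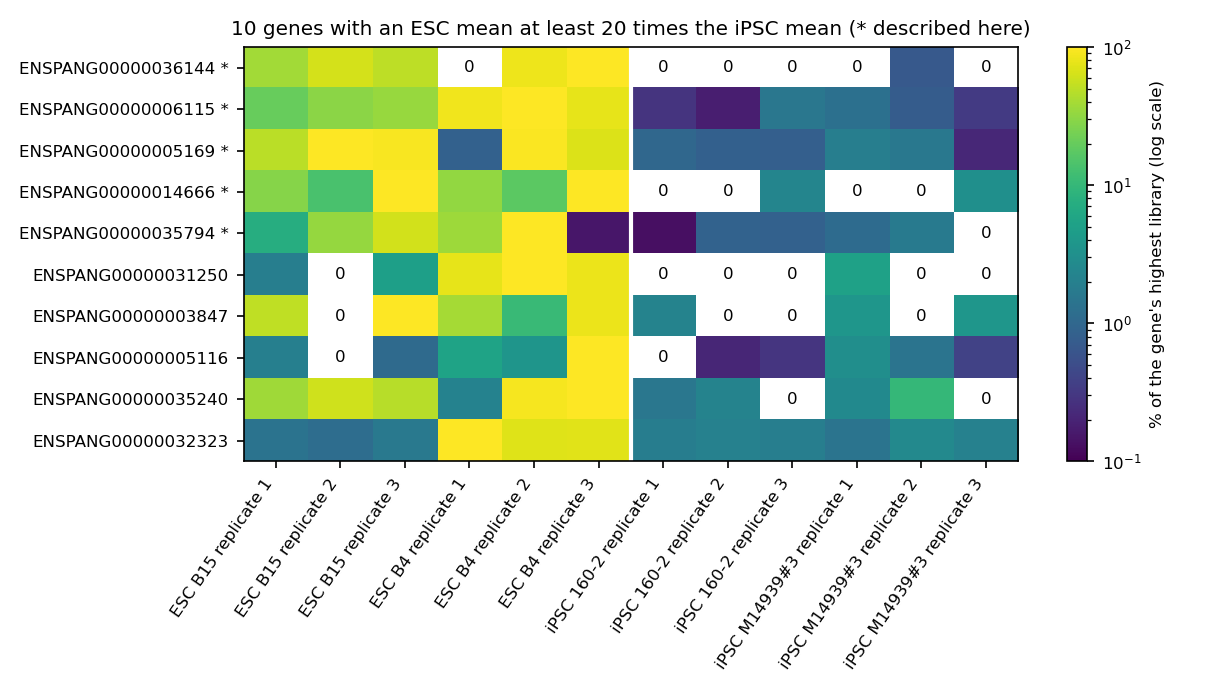
The 10 genes whose ESC mean CPM was at least 20 times the iPSC mean, each library as a percentage of the gene's highest library on a log colour scale, with 0 marking libraries of 0 counts and asterisks the 5 genes described here. ESC libraries are left of the white line, and in ENSPANG00000006115 and ENSPANG00000014666 all 6 of them lie above all 6 iPSC libraries.

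Genes with the most similar levels were sought by Pearson's r of log2 CPM over the 12 libraries, as a description across libraries that share lines and lane sets. For both ENSPANG00000005169 and ENSPANG00000036144 the closest gene was ENSPANG00000035240 (r = 0.969 and r = 0.974), followed by ENSPANG00000010420 (r = 0.920 and r = 0.912). ENSPANG00000010420 had 85.8 to 125 CPM in ESC and 52.7 to 90.1 CPM in iPSC, so its ranges overlapped. Pearson's r does not reflect the size of the differences on the log2 scale, which were far smaller for this gene than for the pair. ENSPANG00000019057 came first for ENSPANG00000014666 (r = 0.940) and for ENSPANG00000006115 (r = 0.950), with 0.679 to 1.55 CPM in ESC and 0.122 to 0.309 CPM in iPSC. Next were ENSPANG00000024444 for ENSPANG00000014666 (r = 0.918) and ENSPANG00000014581 for ENSPANG00000006115 (r = 0.941). ENSPANG00000035794 had the least close matches, ENSPANG00000008320 (r = 0.875) and ENSPANG00000033731 (r = 0.855). ENSPANG00000008320 was also lowest among ESC libraries in B4 replicate 3, at 0.469 CPM against 0.878 to 1.49 CPM in the others, but its iPSC libraries reached 0.956 CPM.

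Among the 5, levels across the 6 ESC libraries moved together for 1 pair. ENSPANG00000005169 and ENSPANG00000036144 had r = 0.985 over the 6 libraries and r = 0.581 over the 5 without B4 replicate 1, so most of that likeness rests on the library in which both were near-absent. ENSPANG00000014666 and ENSPANG00000035794 had r = -0.515. Their order was not opposite throughout, since both were high in B15 replicate 3, at 1.41 and 12.1 CPM. ENSPANG00000006115 and ENSPANG00000036144 had r = -0.207 over the 6 and r = 0.879 over the same 5. With 6 libraries or fewer these are descriptions only.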

How the data were processed

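RNA-seq libraries of 4 baboon cell lines were analysed, 3 per line. Per the labels' protocols, they were made with the SMART-Seq v4 and Nextera XT kits, which do not mark strand, so reads of overlapping genes on opposite strands, or of near-identical copies, cannot be told apart. The authors deposited raw read counts per Ensembl identifier in 18 columns, one for every lane of every library. The tools featureCounts and edgeR appear in the submitters' processing notes. No aligner, build or annotation is given in the sources used here.

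Columns were assigned by name and lanes were summed. CPM used each library's total. One fit of the 12 libraries (edgeR 4.0.16, R 4.3.3; TMM, filterByExpr, robust quasi-likelihood; terms for line and lane set; 17106 genes, 7 residual degrees of freedom) gave all tests, with Benjamini-Hochberg adjustment over all genes and a threshold of 0.05. Log2 differences are shrunken; each SE and 95% interval comes from the unshrunken value and its F statistic. Log2 CPM used a prior count of 2. Labels do not say whether libraries of a line came from separate cultures, so p-values measure the spread between libraries, which may be technical. For B15 and B4, deviations from the line means correlated at 0.259, 0.409 and 0.441 between libraries of equal replicate number, which also share a lane set. Their libraries of unequal number on 2 lanes correlated at -0.112 and -0.0474, so the numbers were taken to pair B15 and B4. Deviations from a line mean cancel out, so low values for unequal numbers are partly built in and the pairing is uncertain. The reported values come from the fit without the replicate block. With it, the ESC line difference was -1.58 for ENSPANG00000006115 (edgeR adjusted p = 0.288) and 1.03 for ENSPANG00000005169. For ENSPANG00000036144 it was 0.75, against -0.07 as reported. ENSPANG00000014666 and ENSPANG00000035794 had -0.08 and -0.14. The block changed no call of a described gene there. Alternatives were DESeq2 1.42.0 and its size factors, no filter, a replicate block, no lane set term, each lane set alone and each library left out. The code was tested on simulated counts.

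Beside the 5 genes, the rule named the 2 closest genes by r for each, and up to 2 other genes near-absent from the same ESC library. The genes of the 20-fold list lie outside it, picked with their values in view. Members and lists were chosen with earlier results of these data known. Lists of marker genes by symbol were not used, because no identifier was paired with a symbol.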

Additional observations from a re-analysis of the deposited data

Results flagged for a closer look

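For each of the 5 genes, the largest gap at an end of the 6 log2 CPM values of a cell type was divided by their range. Of 10 such groups, 3 passed the limit of 0.625 for 6 values. Chance passes about 1 in 20 groups, but these genes were chosen with the low B4 libraries in view, so the gaps are a description and test nothing. ESC B4 replicate 1 was far below the other ESC libraries for ENSPANG00000005169 (gap 0.788 of the range; 0.176 CPM against 10.03 to 20.4) and for ENSPANG00000036144 (0.811; 0 counts against 4.65 to 11.99 CPM). For ENSPANG00000036144 in iPSC, iPSC_M14939#3 replicate 2 stood above the rest with a gap of 1, the value any gene takes when 1 library holds counts (here 2) and the other 5 hold 0. The lone low value of ENSPANG00000035794 in ESC B4 replicate 3 gave 0.505, under the limit, since its other ESC values were also spread widely.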

How the results depend on the processing

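Of 270 alternative values of the tests on single genes, 251 were called neither there nor as reported, and 37 of these changed sign. Called values moved as follows. ENSPANG00000014666 between lane sets, 2.00 as reported, was -0.92 with the replicate block (edgeR adjusted p = 0.830). As described above, that value rests on 2 iPSC counts and gives no direction. ENSPANG00000035794 between ESC lines was 8.45 in the libraries run on 1 lane alone. That sets 1 B15 library beside the B4 library chosen for its 1 count and is no test. The means of the 5 genes over ESC libraries stayed within 1 SD under TMM-scaled totals and with 1 lane per library. Leaving out 1 of 6 libraries cannot move a mean by 1 SD, so that step is no check of stability. Without B4 replicate 2 or 3, the ESC mean of ENSPANG00000035794, 7.67 CPM, became 5.38 or 9.20 CPM.

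Counts over all genes, by edgeR unless stated, moved more. For ESC lines, 63 genes became 240 by DESeq2, 391 with no filter, 39 with no lane set term, 4 on 2 lanes alone, 51 with the block, and 26 to 196 with 1 library left out (196 and 39 lacking B15 replicates 1 and 3, 31 and 26 lacking B4 replicates 1 and 3). For iPSC lines, 1513 became 2555, 2339 and 877 in the same order, 0 on 2 lanes alone (1 library per line there), and 317 to 2471 with 1 left out (2471 lacking B15 replicate 1; 751, 317 and 505 lacking iPSC_160-2 replicates 1 to 3; 466 and 605 lacking iPSC_M14939#3 replicates 1 and 2). For lane sets, 1114 became 1836 by DESeq2, 1811 with no filter, 40 with the block, and 457 to 1417 with 1 left out (552 and 518 lacking replicate 3 of B15 and B4, 457 lacking iPSC_160-2 replicate 1). Same-numbered libraries of all line pairs correlated from -0.223 to 0.441. The values were positive where a pair shared a lane set and negative where it did not. For iPSC, a pairing by number could thus not be told apart from the lane set. The 48 genes with separate cell types became 58 with TMM-scaled totals and 54 with no filter. They became 54 to 94 with 1 library left out, where a rise is built in. Genes near-absent from B4 replicate 1 fell from 4 to 2 with a minimum of 5 CPM, and those from B4 replicate 3 from 3 to 1 under a limit of 1/20 and to 0 with 5 CPM. The 2 left in B4 replicate 1 were ENSPANG00000005169 and ENSPANG00000029976. ENSPANG00000036144 and ENSPANG00000035794 missed the 5 CPM, with 4.65 and 1.42 CPM in the lowest of their other ESC libraries. ENSPANG00000035794 was the 1 left under 1/20. The causes were not tested. Counts below about 3 per library limit the lowest CPM values.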
